A study of Mus musculus with 28 samples.

Results

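The DnaJ (J-protein) genes were followed in frontal cortex RNA of 28 mice, all male and of the C57Bl/6 strain, with each mouse in its own library. They were taken as the protein-coding rows of the deposited tables whose symbols start with Dnaja, Dnajb or Dnajc and a number. The matching genes Dnajb1, Dnajb5 and Dnajc3 were left out by the rule that defined the set. This left 35 genes, 4 of class A, 7 of class B and 24 of class C, and all 35 had a row in both tables. The tables listed 15097 genes for the first cohort and 15054 for the second, with 14888 in both. Each listed gene reached at least 1.01 CPM (a gene's counts scaled to 1 M per library) in as many libraries as a group holds, so DnaJ genes of lower level are not analysed here, and none of the 35 was lost to a further filter. All 3 left-out genes were higher in mice under chronic social stress than in their controls. The set is therefore not a neutral sample of the family in that comparison, and the values of the left-out genes are given with the counts.

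A social and a metabolic stress were studied, each beside age-matched controls. In the first cohort, 8 mice were kept in social isolation for 7 weeks with 2 confrontations a day over the last 20 days (chronic social stress, CSS), and 8 mice were held under control conditions (CSS_control). All 16 had an age of 21 weeks. In the other cohort, 6 mice received 75 mg/kg of streptozotocin, which damages insulin-producing beta cells, and for 21 weeks a diet that drew 43.2% of its kcal from fat (type 2 diabetes, T2D), and 6 mice were controls (T2D_control). Both of these groups were 30 weeks old apart from 1 mouse of 31 weeks in each. The labels name no transgene or mutant allele. Frontal cortex was dissected from 1 hemisphere per brain, so each library mixes neurons, glia and vessels. In such tissue fewer cells of a type and less RNA per cell cannot be told apart.

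J-proteins are co-chaperones. Their J domain, with its conserved His-Pro-Asp motif, stimulates ATP hydrolysis by Hsp70 chaperones, which then hold unfolded or assembled client proteins tightly. Class A proteins also carry a glycine/phenylalanine-rich region and a zinc-binding region, class B proteins lack the zinc-binding region, and class C proteins share only the J domain and place Hsp70 at particular sites such as the spliceosome, the ribosome, the mitochondrial import pore or the synaptic vesicle. In neurons, Dnajc6 (auxilin) and Dnajc5 (cysteine string protein) are known for their parts in removing clathrin coats and in keeping synaptic vesicle proteins folded.

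The stretches just upstream of the RefSeq starts of a few of these genes are printed. Dnajc8 and Dnajc19 were taken because they were the members that passed the test in CSS mice. Dnaja1 was taken because it is a class A member whose window holds a heat shock element core. All are 250 bases from RefSeq on GRCm38.p6, read 5′ to 3′ on the strand of the gene. They run over chr4:132535309-132535558 (plus strand) for Dnajc8, chr3:34081355-34081604 (minus strand) for Dnajc19 and chr4:40722218-40722467 (plus strand) for Dnaja1. RefSeq starts can differ from those of the GENCODE annotation. In GENCODE Dnaja1 starts at 40722150, so its windows lie inside that gene model. The Dnajc8 window runs just past the GENCODE start, 132535550. Capitals mark heat shock element cores, searched as GAANNTTC and TTCNNGAA, and CCAAT boxes, searched as CCAAT on either strand.
Dnajc8: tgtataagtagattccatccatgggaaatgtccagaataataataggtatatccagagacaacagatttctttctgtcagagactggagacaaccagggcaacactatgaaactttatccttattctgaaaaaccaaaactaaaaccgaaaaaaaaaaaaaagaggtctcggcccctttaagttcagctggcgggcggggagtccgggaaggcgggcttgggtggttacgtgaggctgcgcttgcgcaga
Dnajc19: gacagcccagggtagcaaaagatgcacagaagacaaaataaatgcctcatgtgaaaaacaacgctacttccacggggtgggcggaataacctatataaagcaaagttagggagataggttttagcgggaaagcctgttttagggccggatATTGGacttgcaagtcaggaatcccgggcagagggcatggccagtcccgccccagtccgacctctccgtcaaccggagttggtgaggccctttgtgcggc
Dnaja1: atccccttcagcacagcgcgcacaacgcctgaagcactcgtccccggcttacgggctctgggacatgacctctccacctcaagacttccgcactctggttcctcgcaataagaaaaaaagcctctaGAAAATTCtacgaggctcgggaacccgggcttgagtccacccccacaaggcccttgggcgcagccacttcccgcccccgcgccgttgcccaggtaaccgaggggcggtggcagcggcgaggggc
The Dnajc8 window held none of these letters. The Dnajc19 window held 1 CCAAT box, read as ATTGG, and the Dnaja1 window held 1 heat shock element core. Dnaja1 has 2 other windows in the same table, which overlap each other downstream on chromosome 4 from 40722672 and 40722680. Neither holds a heat shock element core, and each holds 2 CCAAT matches that share letters on opposite strands. RefSeq windows were found for 29 of the 35 members, 39 windows in all. Of these 39, 12.8% held GAANNTTC, against 6.69% of all 32851 windows of this length. They lay at Dnaja1, Dnaja4, Dnajb6 and Dnajc27. TTCNNGAA was in 10.3% of member windows, against 7.17% of all windows, at Dnajb4, Dnajb6 and Dnajc10. CCAAT was in 25.6% of member windows, against 33.8% of all windows. Member windows had a median GC content of 63.6%, against 52.4% for all windows. Windows of 1 gene can overlap, and a match describes letters, not a bound site.

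Library totals (M estimated counts over the genes in the table) ranged over 15.2 to 21.9 in CSS, 14.3 to 37.5 in CSS_control, 14.3 to 22.7 in T2D and 12.1 to 21.6 in T2D_control. The RNA integrity number (RIN) averaged 9.63 ± 0.341 in CSS, 9.53 ± 0.225 in CSS_control, 9.05 ± 0.235 in T2D and 9.37 ± 0.509 in T2D_control (SD). All 49 marker genes of cortical cell types, vessels, blood and the neighbouring striatum were in both tables, and none was at 0 in every library. In CSS mice 5 of 8 microglial markers fell, and their summed level was 162 to 276 CPM in CSS, against 275 to 318 CPM in CSS_control. Other markers also passed in CSS: Gpr17 of oligodendrocyte precursors rose by 0.40, Col1a1 of meningeal fibroblasts by 1.14 and Slco1a4 of endothelium by 0.24, and Sst of inhibitory neurons fell by 0.30 on the log2 scale (edgeR, adjusted p = 0.00903, 0.00999, 0.0331 and 0.0279). Every marker of oligodendrocyte precursors, meningeal fibroblasts and endothelium was above 0. Of the 5 inhibitory neuron markers 3 were below 0 and 2 above, with a median of -0.02. Their summed level was 691 ± 78.2 CPM in CSS and 698 ± 69.5 CPM in CSS_control (SD, n = 8 each). Of 5 astrocyte markers 4 were above 0, 1 was below it and none passed, with a median of 0.15. The 4 red blood cell markers had a median log2 fold change of 0.77 and none passed, with a summed level of 221 CPM at the median and 563 CPM at the highest in CSS, and of 162 and 227 CPM in CSS_control. The 6 striatal markers were all below 0 in CSS without passing, with a median of -0.25 and a summed level of 631 ± 95.5 CPM in CSS and 728 ± 185 CPM in CSS_control (SD, n = 8 each). In T2D mice no marker passed the test. All 8 microglial markers were below 0 there, with a median log2 fold change of -0.45 and a summed level of 137 to 263 CPM in T2D and 181 to 283 CPM in T2D_control. All 6 striatal markers were above 0, with a median of 0.53 and a summed level of 130 to 1052 CPM in T2D and 165 to 943 CPM in T2D_control. All 5 excitatory neuron markers were below 0, with a median of -0.17 and a summed level of 790 ± 228 CPM in T2D and 915 ± 138 CPM in T2D_control (SD, n = 6 each). The sample titles of the first cohort also carry a code number whose meaning the labels do not give: 1 CSS mouse and CSS_control 1 to 4 have number 1, 1 CSS mouse and CSS_control 5 to 7 have number 2, 3 CSS mice and CSS_control 8 have number 3, and the other 3 CSS mice have number 4. Among the members, CSS_control 1 to 4 did not overlap the other controls for Dnajc8, Dnajb4 and Dnajc24. The share of all genes with such a split was not determined. The changes of the called members are also given against CSS_control 5 to 8 alone. No gene of the table passed in that comparison, the markers named here included. The 3 CSS mice of number 4 have no control of that number. Where the title code number is taken as a factor, these mice therefore do not bear on the CSS change.

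DnaJ transcripts made up 0.278% ± 0.010 of all counts in CSS, 0.288% ± 0.009 in CSS_control, 0.282% ± 0.013 in T2D and 0.291% ± 0.015 in T2D_control (SD, n = 8, 8, 6 and 6). Levels of different genes were compared per kilobase of exon. Over all 28 libraries Dnajc6, which recruits Hsp70 to clathrin-coated vesicles, had the highest level, 68.2 ± 6.64 CPM per kb (SD). Dnaja2, a general cytosolic partner of Hsp70, followed with 52.0 ± 7.30 CPM per kb, and Dnajc5 with 47.6 ± 3.42 CPM per kb. Dnajc5 lay within 1 SD of Dnaja2, and Dnajc6 stood more than 2 SD above Dnajc5. Dnaja1, the best-known cytosolic class A member, had 28.6 ± 3.79 CPM per kb and Dnajc27, a J-protein with a Rab-like GTPase domain, had 28.3 ± 1.42 CPM per kb, which did not differ beyond their spread. The lowest were Dnajc1 at 3.68 ± 0.492, Dnajc12, a partner of the aromatic amino acid hydroxylases, at 1.99 ± 0.272, and Dnajc25 at 1.03 ± 0.220 CPM per kb. The highest level was 66.1 times the lowest, and the median member stood at 9.83 CPM per kb. Part of this order depended on the length used. Per longest transcript in place of the union of exons, Dnajc6, Dnaja2 and Dnajc5 still came first and Dnajc12 and Dnajc25 last, but Dnajc7 (49.6 CPM per kb) and Dnajb6 (44.0) stood just above Dnaja1 (43.9), Dnajc27 was lower at 30.7, and Dnajc28 (3.93) took the place of Dnajc1 (7.79) among the lowest.

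**Figure D1:**
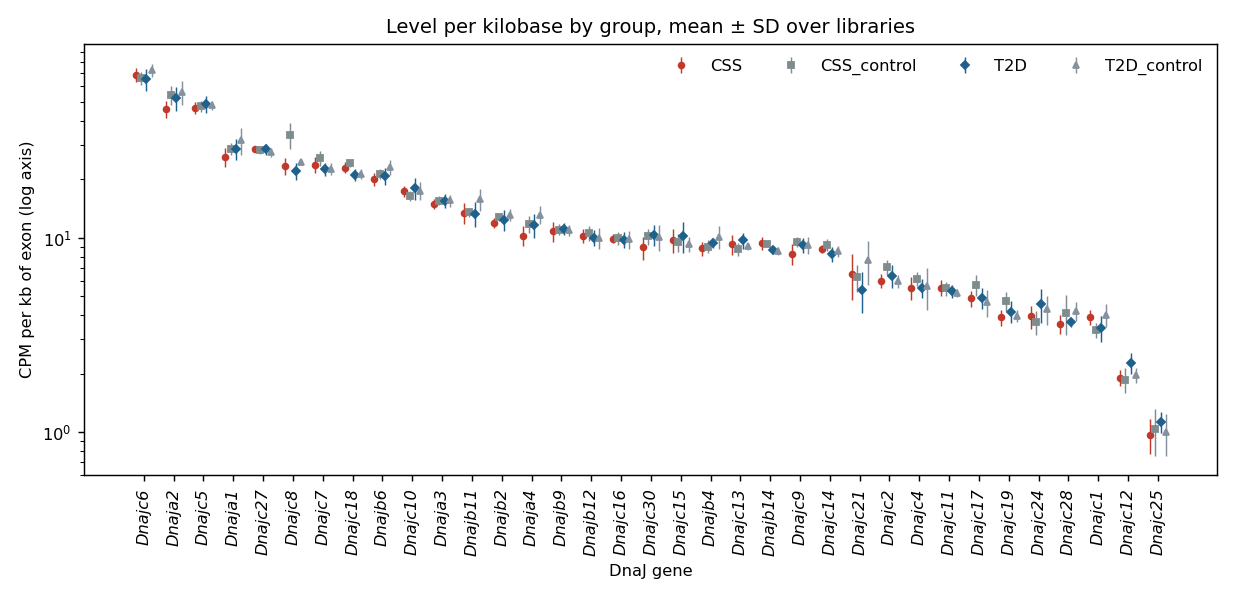
Level of the 35 DnaJ genes in CPM per kilobase of exon (log axis), mean and SD over the libraries of each group, in the order of the level over all libraries. Dnajc6, Dnaja2 and Dnajc5 lie above 45 CPM per kb on average and Dnajc25 near 1; for most genes the 4 groups lie close together, while Dnajc8 stands higher in CSS_control than in the other groups.

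The members varied little between mice of a group. The coefficient of variation (SD over mean, averaged over the 4 groups) had a median of 9.56% over members, against 13.2% over all shared genes. Of the 35 members, 9 were above the median of the 201 genes nearest to them in level. Dnajc27 was the steadiest at 5.04%. The most variable were Dnajc21, a cytosolic and nucleolar factor of large ribosomal subunit maturation, at 23.2%, Dnajc25 at 20.9% and Dnajc24, which serves the diphthamide modification of elongation factor 2, at 16.2%. Genes of like level to Dnajc21 had a median of 10.3%, whereas for Dnajc25 and Dnajc24 the medians of like genes were 21.1% and 18.9%.

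In CSS mice 2 members fell, none rose and 33 did not pass the test. Members called by edgeR's quasi-likelihood test (adjusted p under 0.05 over all genes) were thus 5.71% of the set, against 4.52% of all 15097 genes. Of all genes 2.42% were called lower and 2.11% higher. At an unadjusted p under 0.05 there were 9 lower and 1 higher, 28.6% of members, against 21.5% of all genes (10.5% lower and 11% higher). The log2 fold change was below 0 in 24 of 35 members (68.6%), against 48.7% of all genes, with a median of -0.05, against 0.01 for all genes, and it ranged from -0.54 to 0.22 over the members. The 3 matching genes that the rule leaves out all rose: Dnajc3, an endoplasmic reticulum co-chaperone, by 0.28 ± 0.05, the heat-inducible Dnajb1 by 0.37 ± 0.08 and Dnajb5 by 0.47 ± 0.12 on the log2 scale (SE, edgeR adjusted p = 0.00999, 0.0213 and 0.0322). With them counted, 5 of 38 genes passed, 3 higher and 2 lower, and 24 of 38 were below 0. Against CSS_control 5 to 8 alone these changes were 0.23, 0.26 and 0.30, and none passed (edgeR, adjusted p = 0.233, 0.311 and 0.376). With the title code number as a factor Dnajc3 and Dnajb1 were lost (edgeR, adjusted p = 0.0940 and 0.129) and Dnajb5 was kept at 0.67 (edgeR, adjusted p = 0.0393). With the replicate block Dnajb5 was lost (edgeR, adjusted p = 0.0623). Leaving out 1 library ended the Dnajc3 call in 0 of 16 fits, the Dnajb1 call in 1 (CSS 6) and the Dnajb5 call in 7 (edgeR, adjusted p up to 0.0685).

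Dnajc8, a J-protein of the spliceosome, had the largest change. Its lowest, median and highest levels were 50.5, 58.7 and 67.3 CPM in CSS and 71.7, 85.4 and 108 CPM in CSS_control. Every CSS library lay below every control, which was so, in the lower direction, for 0.397% of all genes. The mean was 59.5 ± 5.94 CPM in CSS and 86.2 ± 13.3 CPM in CSS_control (SD, n = 8 each). The log2 fold change was -0.54 ± 0.09 (edgeR, adjusted p = 0.00660), a level 31.0% lower. The controls themselves fell into 2 ranges, 88.3 to 108 CPM in CSS_control 1 to 4 and 71.7 to 82.4 CPM in CSS_control 5 to 8. Against CSS_control 5 to 8 alone the log2 fold change was -0.35 and did not pass (edgeR, adjusted p = 0.225), as was the case for every gene of the table. With the title code number as a factor it was also -0.35 (edgeR, adjusted p = 0.124). In the second cohort Dnajc8 lay between 49.6 and 65.1 CPM in T2D and between 59.8 and 65.8 CPM in T2D_control, below all CSS_control libraries, but the tables were scaled separately. Dnajc8 lies at chr4:132535550-132553742 on the plus strand in the GENCODE annotation, and none of its exons overlaps a gene on the opposite strand.

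Dnajc19, the inner-membrane J-protein of the mitochondrial import motor, was the other member that fell. It had 13.8, 15.5 and 18.9 CPM (lowest, median, highest) in CSS and 15.4, 18.8 and 22.4 CPM in CSS_control. The groups overlapped: CSS 1 lay at the level of the middle controls, and several controls, CSS_control 6 among them, lay within the CSS range. The log2 fold change was -0.28 ± 0.08 (edgeR, adjusted p = 0.0448), 17.8% lower, with 8 of 8 CSS libraries below the control mean. This call was narrow. It held when CSS 1, CSS_control 6 or CSS_control 8 was left out and was lost, with an adjusted p of up to 0.0823 by edgeR, in the other 13 of 16 such fits. Against CSS_control 5 to 8 alone the change was -0.24 (edgeR, adjusted p = 0.321). The annotation holds a processed pseudogene, Dnajc19-ps, on chromosome 7, and 4.42% of the exon bases of Dnajc19 overlap a gene on the opposite strand, so some reads may be shared.

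**Figure D2:**
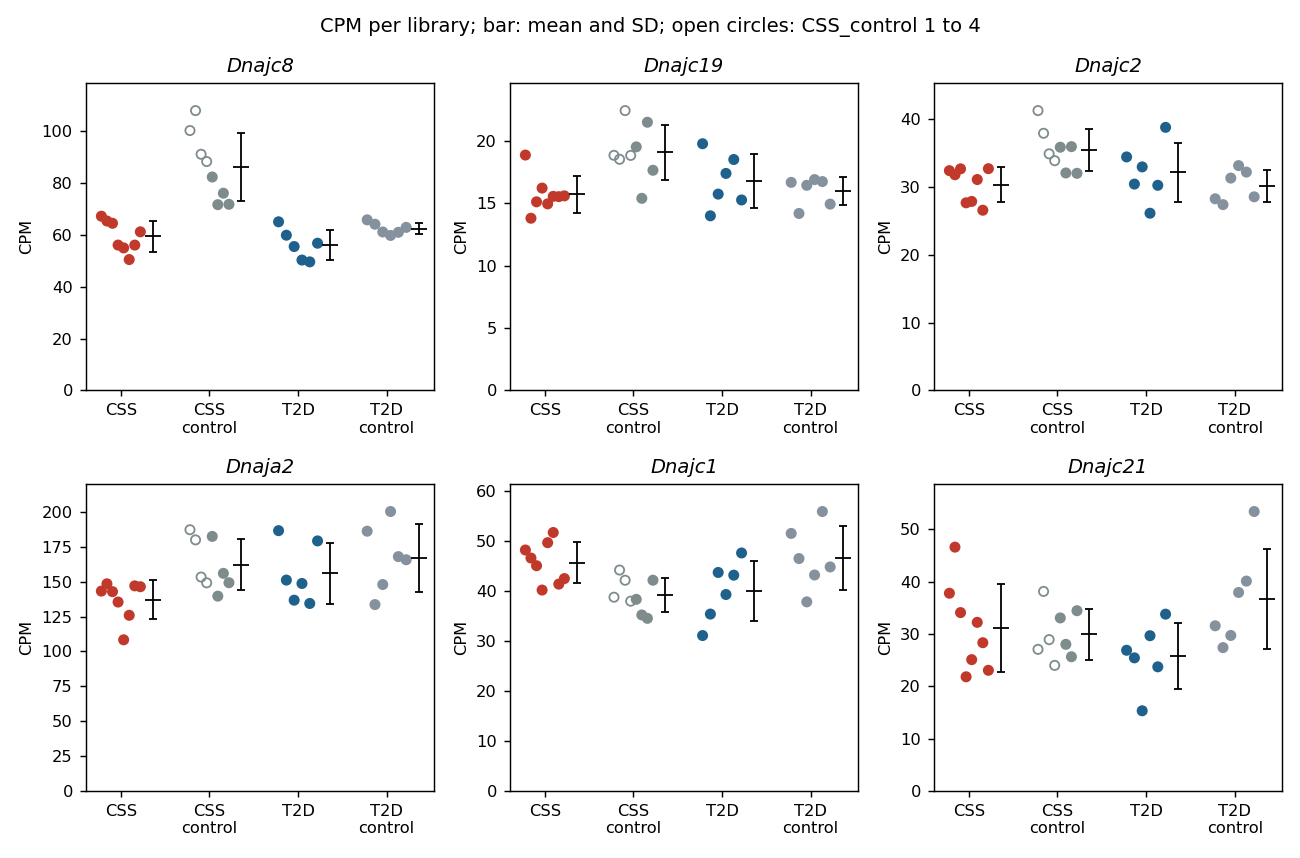
CPM of 6 DnaJ genes in every library by group, from 0; points are mice, the bar beside them is the mean and SD, and open circles mark CSS_control 1 to 4. For Dnajc8 all 8 CSS points lie at or below 67.3 CPM and all CSS_control points at or above 71.7 CPM, with the 4 open circles highest; the groups overlap for the other 5 genes.

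The members next in order of p did not pass. Dnajc2, the J-protein of the ribosome-associated complex, had 26.5, 31.4 and 32.6 CPM in CSS and 32.0, 35.3 and 41.2 CPM in CSS_control. Its log2 fold change was -0.23 ± 0.06 (edgeR, adjusted p = 0.0508), and the groups overlapped only around 32 CPM. Dnajc1, an endoplasmic reticulum membrane protein, was the 1 member with an unadjusted p under 0.05 in the upward direction. It had 40.2, 45.8 and 51.7 CPM in CSS and 34.6, 38.6 and 44.2 CPM in CSS_control, a log2 fold change of 0.22 ± 0.07 (edgeR, adjusted p = 0.0574). Dnaja2 had 108, 143 and 148 CPM in CSS and 140, 155 and 187 CPM in CSS_control, a log2 fold change of -0.24 ± 0.07 (edgeR, adjusted p = 0.0624). All 8 CSS libraries were on the side of the change for each of these genes. DESeq2 called all 3 of them besides Dnajc8 and Dnajc19, with adjusted p of 0.0139, 0.0241 and 0.0237, as did edgeR with 1 surrogate variable (adjusted p = 0.0436, 0.0491 and 0.0438). Of 11 alternatives Dnajc2 passed in 6, Dnaja2 in 3 and Dnajc1 in 2. None of them passed with the title code number as a factor or against CSS_control 5 to 8 alone (edgeR, adjusted p from 0.233 to 0.472).

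By role, the nuclear, RNA, ribosome and transfer RNA-linked members had a median log2 fold change of -0.21, and 1 of 6 fell (Dnajc8). In the same list Dnajc9, a histone co-chaperone, was at -0.20 ± 0.07 (edgeR, adjusted p = 0.115) and Dnajc21 at 0.06 ± 0.14 (edgeR, adjusted p = 0.854). Of the 7 mitochondrial members 1 fell (Dnajc19) and the median was -0.15. Dnajc15, the paralog of Dnajc19, was at 0.03 ± 0.08 (edgeR, adjusted p = 0.863) and Dnaja3, the mitochondrial class A protein, at -0.05 ± 0.05 (edgeR, adjusted p = 0.567). None of the 3 cytosolic class A members passed, with a median of -0.19, and Dnaja1 had 183 to 259 CPM in CSS and 226 to 269 CPM in CSS_control. Of the exon bases of Dnaja4 44.05% overlap genes on the opposite strand, and of those of Dnajc30 26.25%, so both are uncertain where strand was not used. Among smaller shares were 19.09% for Dnajc14, 9.93% for Dnaja1 and 6.43% for Dnajc1. The annotation also holds a processed pseudogene, Dnaja1-ps, on chromosome 5. None of the 3 cytosolic class B members passed, with a median of -0.09. The rule had removed Dnajb1 and Dnajb5 from this class, and with them 2 of 5 rose and the median was -0.03. Dnajb2, which links Hsp70 clients to the proteasome, was at -0.10 ± 0.05 and Dnajb6, which keeps polyglutamine proteins soluble, at -0.09 ± 0.05. The 4 members listed under clathrin, endosome and synaptic vesicle function, with Dnajc27 placed among them, had a median of 0.04 and none passed. Dnajc13, an endosomal J-protein, was at 0.09 ± 0.07, Dnajc6 at 0.06 ± 0.06 and Dnajc5 at -0.03 ± 0.05. The 95% interval of the Dnajc5 change ran from -0.13 to 0.08 and that of Dnajc27 from -0.06 to 0.10.

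None of the 10 endoplasmic reticulum members passed in CSS mice, and their median was -0.02. Dnajc3, which rose, is an endoplasmic reticulum J-protein that the rule had removed, and with it 1 of 11 passed and the median was -0.01. Dnajb9, a BiP co-chaperone induced by unfolded proteins, had 23.0 to 31.9 CPM in CSS and 25.5 to 30.5 CPM in CSS_control (log2 fold change -0.03 ± 0.07). Dnajb11, a soluble partner of BiP, had 33.8 to 50.2 CPM in CSS and 39.1 to 46.7 CPM in CSS_control (-0.01 ± 0.07). In the same libraries BiP itself, Hspa5, averaged 236 ± 36.1 CPM in CSS and 187 ± 24.3 CPM in CSS_control (SD, n = 8 each), and it rose by 0.34 ± 0.09 on the log2 scale (edgeR, adjusted p = 0.0411). The markers of microglia, oligodendrocyte precursors, meningeal fibroblasts, endothelium, astrocytes, striatum and blood given above also differed on average between these groups, as did Sst. So did the summed level of oligodendrocyte markers, 2809 ± 270 CPM in CSS and 3009 ± 262 CPM in CSS_control (SD, n = 8 each), though none of these markers passed. What part the markers had in the DnaJ values was not tested.

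**Figure D3:**
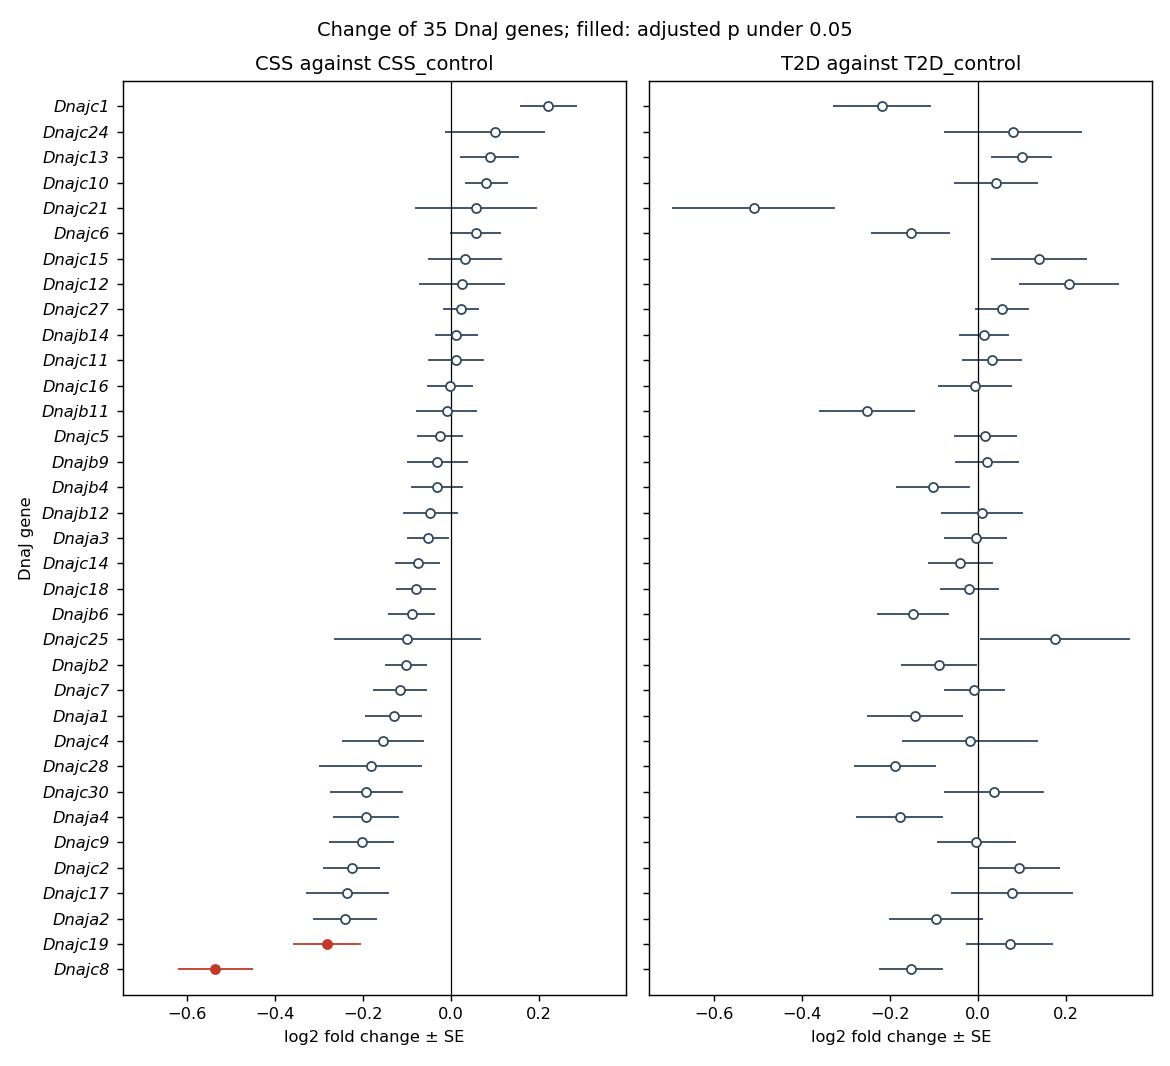
Log2 fold change with SE of the 35 DnaJ genes, for CSS against CSS_control (left) and T2D against T2D_control (right), in the order of the CSS change; filled red points have an adjusted p under 0.05. Only Dnajc8 at -0.54 and Dnajc19 at -0.28 in CSS are filled, and 24 genes lie below 0 on the left against 19 on the right.

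The genes that work with the J-proteins were read from lists of Hsp70 chaperones and their partners. Of 14 tested Hsp70 and Hsp110 genes 1 rose in CSS (Hspa5), 13 did not pass and the median was 0.12. The stress-inducible Hspa1b was at 0.54 ± 0.16 (edgeR, adjusted p = 0.0578), a value that is uncertain because reads of the near-identical Hspa1a can be assigned to it. Of 14 nucleotide exchange factors and other Hsp70 partners 1 fell, St13, which stabilises Hsp70 in its client-binding state. Bag1, a nucleotide exchange factor, came next by p at -0.19 ± 0.06 (edgeR, adjusted p = 0.0574). St13 had 136 to 195 CPM in CSS and 150 to 266 CPM in CSS_control, a log2 fold change of -0.40 ± 0.10 (edgeR, adjusted p = 0.0353). Of 10 Hsp90 genes and co-chaperones 2 fell: Cdc37, which delivers kinases to Hsp90, at -0.22 ± 0.05, and the cyclophilin Ppid at -0.22 ± 0.05 (edgeR, adjusted p = 0.0243 and 0.0218). None of 4 J-proteins with other symbols passed, 3 were above 0 and 1 below it, and the median was 0.06. The 1 below 0, Sec63 of the endoplasmic reticulum translocon, was at -0.23 ± 0.08 (edgeR, adjusted p = 0.0893). No gene of these 4 lists passed in T2D or in the difference between the cohorts.

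In T2D mice no member passed, nor did any gene of the table (0% of 15054), with 879 genes (5.84%) and 2 members (5.71%) at an unadjusted p under 0.05. Both were lower, as were 2.87% of all genes at that p. No member had groups that did not overlap, which 0.0864% of all genes showed in the lower direction. DESeq2 called 4 genes and limma voom 0, and no member in either case. The log2 fold change was below 0 in 19 of 35 members, against 49.2% of all genes, and the median was -0.01 in a range from -0.51 to 0.21. Dnajc21 was farthest from 0. It had 15.4, 26.2 and 33.8 CPM in T2D and 27.4, 34.7 and 53.4 CPM in T2D_control, a log2 fold change of -0.51 ± 0.18 (edgeR, unadjusted p = 0.0150, adjusted p = 0.825). All 6 T2D libraries were below the control mean, but T2D_control 6 alone reached 53.4 CPM and the groups overlapped over 27.4 to 33.8 CPM. Its change was -0.26 with 1 surrogate variable, -0.37 without T2D_control 6 and -0.67 without the mice of 31 weeks, and did not pass in any of these fits. Dnajb11 had 36.9, 41.9 and 51.6 CPM in T2D and 41.6, 52.8 and 58.6 CPM in T2D_control (-0.25 ± 0.11, edgeR unadjusted p = 0.0344, adjusted p = 0.825). With RIN as a covariate its change was -0.13, and with 1 surrogate variable -0.17. Hspa5 averaged 242 ± 74.9 CPM in T2D and 303 ± 84.3 CPM in T2D_control, and did not pass (edgeR, adjusted p = 0.844).

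Other members of small p in T2D were Dnajc8 at -0.15 ± 0.07, Dnajc28 at -0.19 ± 0.09 and Dnajc1 at -0.22 ± 0.11, all with an adjusted p of 0.825 by edgeR. With RIN as a covariate Dnajc1 was at -0.13. Dnajc28 had 12.2 to 14.2 CPM in T2D and 12.8 to 16.8 CPM in T2D_control. Dnajc12 was at 0.21 ± 0.11, with 7.81 to 11.5 CPM in T2D and 7.66 to 9.68 CPM in T2D_control. Dnajc19, one of the members that fell in CSS, had 14.0, 16.6 and 19.8 CPM in T2D and 14.2, 16.6 and 16.9 CPM in T2D_control, a log2 fold change of 0.07 with an interval from -0.12 to 0.26. Dnajc6 had 312 to 470 CPM in T2D and 382 to 470 CPM in T2D_control (-0.15 ± 0.09), and Dnajc5 had 303 to 399 CPM in T2D and 302 to 353 CPM in T2D_control (0.02 ± 0.07). The ranges of both vesicle genes overlapped between the groups. The left-out genes Dnajc3, Dnajb1 and Dnajb5 were at -0.27, -0.26 and -0.44, and none passed. With RIN as a covariate they were at -0.15, -0.06 and -0.24. The RIN and the microglial, striatal and excitatory neuron marker levels given above also differed on average between these groups. So did the summed levels of oligodendrocyte markers, 2545 ± 385 CPM in T2D and 2730 ± 475 CPM in T2D_control (SD). In the same order, oligodendrocyte precursors had 108 ± 17.4 and 93.8 ± 13.5 CPM, and meningeal fibroblasts 33.5 ± 21.1 and 22.8 ± 2.68 CPM. Inhibitory neuron markers had 768 ± 185 and 642 ± 141 CPM. The part of the markers in the DnaJ values was not tested.

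**Figure D4:**
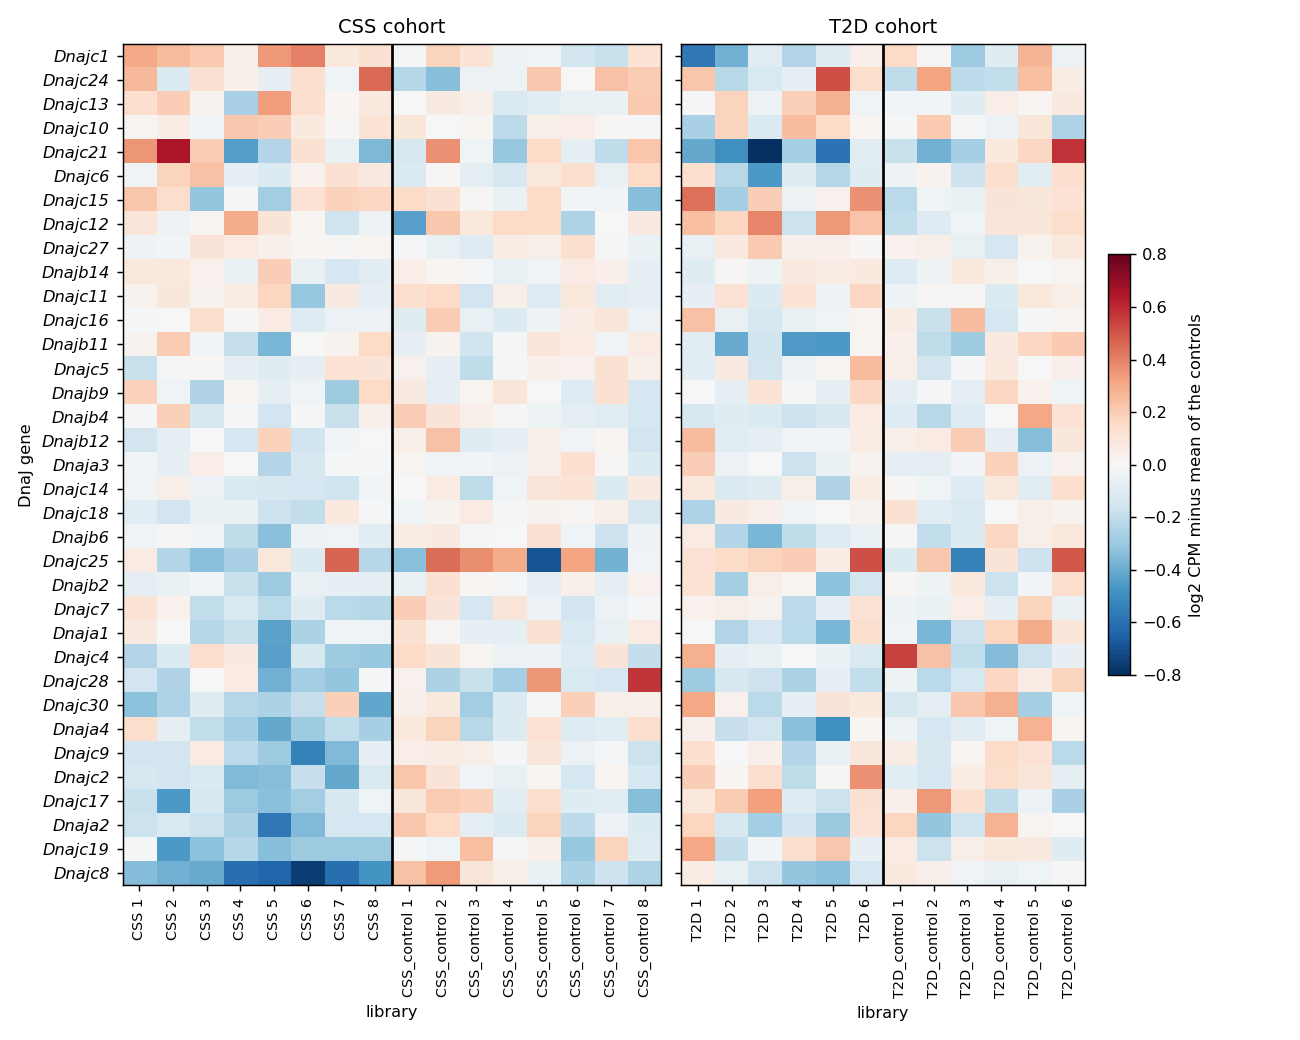
Log2 CPM of the 35 DnaJ genes in each library, relative to the mean of the controls of its cohort (CSS cohort left, T2D cohort right; red higher, blue lower). In the bottom row Dnajc8 is below 0 in all 8 CSS libraries, and Dnajc21 is below 0 in all 6 T2D libraries but uneven within every group.

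Whether the members changed differently under the 2 stresses was tested by the CSS change minus the T2D change over all 28 libraries. No member passed (0 of 35), against 12 of 14888 shared genes (0.0806%). By an unadjusted p under 0.05 there were 4 members on the negative side and 2 on the positive side (17.1%), against 12.4% of all genes (6.36% negative and 6% positive). The difference was below 0 in 26 of 35 members, against 51.1% of all genes. The left-out Dnajb1, Dnajb5 and Dnajc3, not in this count, were all above 0 (0.62, 0.90 and 0.54). Dnajc1 came first with a difference of 0.43 ± 0.12 (edgeR, adjusted p = 0.149), being 0.22 in CSS and -0.22 in T2D. Dnajc8 followed at -0.39 ± 0.12 (edgeR, adjusted p = 0.176), or -0.20 with CSS_control 5 to 8 only (edgeR, adjusted p = 0.757), then Dnajc19 at -0.36 ± 0.12 and Dnajc2 at -0.33 ± 0.11 (edgeR, adjusted p = 0.225 for both). Dnajc21 had a difference of 0.56 ± 0.24, with an interval from 0.09 to 1.03 (edgeR, adjusted p = 0.337). It was 0.29 with 1 surrogate variable (edgeR, adjusted p = 0.549), below the 0.47 of Dnajc1 in that fit. The calls of Dnajc8 and Dnajc19 in CSS were therefore not shown to differ from T2D. Among the left-out genes Dnajc3 passed, with a difference of 0.54 ± 0.11 (edgeR, adjusted p = 0.0485). This call was narrow: it held in 7 of 28 fits without 1 library and in 4 of 10 other alternatives, and was lost by limma voom, with upper-quartile scaling, the replicate block, RIN or 1 surrogate variable, and against CSS_control 5 to 8 (adjusted p up to 0.503).

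Members with a short exon length tended to have the lower values in CSS. Across the 35 genes the Spearman correlation of the log2 fold change with the length of the union of exons was 0.50 in CSS, against 0.21 across all 15065 genes with a length. In T2D it was -0.02 for members and 0.07 for all genes. These are descriptions across genes that share libraries, and genes are not independent replicates. The 17 members under the median exon length of 4777 bases had a median log2 fold change of -0.15 in CSS, and the 18 others 0.00. Dnajc8, at 2555 bases, lay among the short members, and Dnajc1, at 11651 bases, among the long ones. What part the length had in the changes was not tested.

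**Figure D5:**
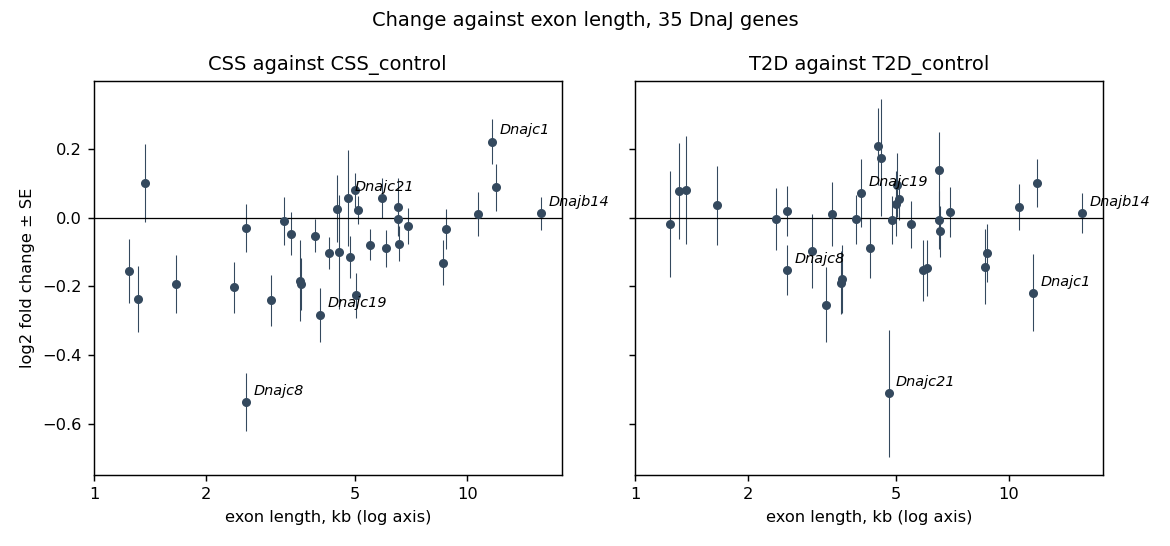
Log2 fold change with SE of the 35 DnaJ genes against the length of the union of their exons in kb (log axis), for CSS (left) and T2D (right). On the left most genes under 5 kb lie below 0, with Dnajc8 lowest at -0.54, and the Spearman correlation is 0.50 on the left and -0.02 on the right.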

How the data were processed

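RNA-seq of frontal cortex covered 28 mice, 1 library each, prepared per the labels' protocols with a stranded total RNA kit and ribosomal RNA depletion. Each cohort had 1 table of estimated counts per gene, as deposited by the authors. Salmon 1.1.0 and the build mm10 are named in the submitters' processing notes. The sources used here do not give the step from transcripts to genes, the use of strand or the filter on low genes.

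Estimated counts were rounded to whole numbers. Groups came from the titles. With R 4.3.3, edgeR 4.0.16 fitted each cohort over all genes (default filter, which removed none; TMM scaling; robust quasi-likelihood test; Benjamini-Hochberg adjustment; threshold 0.05), and a further fit over 28 libraries and 14888 shared genes tested the CSS change minus the T2D change. All p-values of single genes are from these fits unless another tool is named. The SE is the fold change divided by the root of the F statistic, and a 95% interval is 1.96 SE either side. This interval is a normal approximation and is narrower than the quasi-likelihood test implies. For Dnajc8 in T2D it ran from -0.29 to -0.01 at an unadjusted p of 0.0551 (edgeR). CPM are TMM-scaled within each table. Alternatives used limma 3.58.1 (voom), DESeq2 1.42.0, sva 3.50.0, other scalings, filters and covariates, and libraries left out in turn. The fits were tested on simulated counts. Lengths and overlaps came from GENCODE M21 (GRCm38), in which 99.8% of identifiers were found, and promoters from RefSeq. The 50 bases after the start in that table were not used, and the motif TTCNNGAA was added to the one first listed. Figures were drawn with matplotlib 3.10.9.

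The members, role lists and tests were chosen with earlier results of these data known. Named members are those past the threshold or of the 5 smallest p in a comparison, the 5 of highest and 3 of lowest level, the 3 of highest spread and 12 fixed genes. Partner genes are those that passed or had one of the 2 smallest p of their list in CSS, apart from 1 that is not reported here. Dnajc9, the marker genes named and the repeated naming of the 3 left-out genes were chosen after their values were seen. By their labels the samples are separate mice. No pair of libraries held identical values.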

Additional observations from a re-analysis of the deposited data

Results flagged for a closer look

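In 84 sets of values (21 named members in 4 groups), 3 held a library whose gap to its nearest neighbour was large for the range of its group, and chance flags about 1 set in 20. Dnajc15 lay at 48.6 CPM in CSS_control 8, against 59.3 to 68.5 CPM in the other controls of that group. Dnajc25 reached 6.29 CPM in CSS 7, against 3.61 to 4.83 CPM in the other CSS libraries. Dnajc25 also reached 6.35 CPM in T2D 6, against 4.63 to 5.09 CPM in the other T2D libraries. Neither gene passed the test in any comparison.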

How the results depend on the processing

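The count of members called in CSS (2) was 5 by DESeq2, 4 with a mean of at least 5 CPM, 1 with the replicate block, 1 with RIN as a covariate, 5 with 1 surrogate variable, 0 with the title code number as a factor and 0 against CSS_control 5 to 8 only. It was 5 with the 3 left-out genes, an alternative chosen after seeing the data. Leaving out each library in turn gave 1 to 4. Dnajc2 passed besides Dnajc8 and Dnajc19 by limma voom (adjusted p = 0.0486). It also passed in edgeR with DESeq2 size factors or upper-quartile scaling (edgeR, adjusted p = 0.0487 and 0.0380). All genes called in CSS (683) were 1312 by DESeq2, 2 with the title code number, 0 against CSS_control 5 to 8 only (1971 at an unadjusted p under 0.05) and 222 to 794 without 1 library. In the other 8 of 11 alternatives that keep all libraries or change the fit, this count stayed within 1.5 times of 683. The count was lower by over 1.5 times without any 1 of CSS 5, 6 and 8 and CSS_control 1 to 5. Dnajc8 stayed called in all 16 of these fits (edgeR, adjusted p 0.00285 to 0.0206), in 9 of 11 other alternatives, and was lost with the title code number and against CSS_control 5 to 8.

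In T2D no alternative called a member, and DESeq2 called 4 genes. For the difference between the cohorts no alternative called a member, except that Dnajc3 made 1 with the left-out genes. Genes called there (12) were 130 by DESeq2, 0 by limma voom, 6 with upper-quartile scaling, 24 with at least 5 CPM, 32 with the replicate block, 0 with RIN, 1 with 1 surrogate variable, 0 with CSS_control 5 to 8 only (added after seeing the data) and 0 to 32 without 1 library. Per longest transcript, Dnajc6 stood at 75.7, Dnaja1 at 43.9 and Dnajc27 at 30.7 CPM per kb. No result changed direction among those past the threshold.

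Same-numbered libraries correlated at -0.19 to 0.36 in the CSS cohort (2 of 8 best with their own number) and at -0.03 to 0.17 in the T2D cohort (1 of 6). The numbers thus showed no clear pairing of the mice, though low correlations cannot exclude one. Under the block Dnajc19 had an edgeR adjusted p of 0.0803. Depth limits the 5 members under 10 CPM most.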
